A study of Mus musculus with 2 samples.

Results

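The subunits of the ionotropic glutamate, GABA-A and glycine receptors were followed through the cell types of the WT mouse dorsal telencephalon at embryonic day 14.5 (E14.5). The 29 genes were listed by name, all 29 were found among the 32285 genes of the files, and the list was drawn up by gene name with no threshold on a measured value. They were the 4 AMPA receptor subunits (*Gria1* to *Gria4*), 5 kainate receptor subunits (*Grik1* to *Grik5*), 7 NMDA receptor subunits (*Grin1*, *Grin2a* to *Grin2d*, *Grin3a* and *Grin3b*), the delta subunit *Grid1*, 10 GABA-A receptor subunits (*Gabra2* to *Gabra6*, *Gabrb1*, *Gabrb2*, *Gabrg1*, *Gabrg3* and *Gabrd*) and the glycine receptor subunits *Glra2* and *Glrb*. Other subunits of these families were not analysed here, so the GABA-A family was covered only in part. Single cell RNA sequencing (scRNA-seq) had been performed on 2 WT samples, the controls of an Eomes-Cre line that carries *Mllt3* in the line's name (EoMltt3 in the labels, EomesMllt3 in the design text), with the age of E14.5 for both and no treatment named. The labels call the tissue brain hemispheres and the genotype WT, and they do not give the alleles that each embryo carried.

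Ionotropic receptors are channels that open when a transmitter binds. AMPA, kainate and NMDA receptors are tetramers that let cations in when glutamate binds, and the delta subunits are related proteins that bind cerebellins. GABA-A and glycine receptors are pentamers that conduct chloride. In the embryonic cortex, where the chloride gradient still favours efflux, GABA depolarises progenitors and young neurons, and both transmitters act outside synapses on proliferation and migration. Radial glial cells (RGCs) line the ventricle and give rise to intermediate progenitor cells (IPCs), which divide into projection neurons (PNs), while GABAergic interneurons migrate in from the ganglionic eminences, mainly the medial and caudal ones (MGE and CGE), and the lateral one (LGE) mostly supplies the striatum and olfactory bulb.

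Unique molecular identifiers (UMIs), each marking 1 captured RNA molecule, were counted per gene and cell. Replicate 1 held 6163 barcodes and 64182006 UMIs and replicate 3 held 8870 barcodes and 93295807 UMIs, with medians of 9802 and 9754 UMIs, and 23 barcodes occurred in both. After filtering, 5149 and 6854 cells remained in 25 clusters, which were built without the receptor genes and their partners and named from fixed markers, with the suffix "-like". The classes held, in replicates 1 and 3, 659 and 1545 RGC-like, 740 and 1226 IPC-like, 611 and 1150 newborn PN-like, 553 and 583 corticothalamic-like, 1547 and 1430 other PN-like, 333 and 215 MGE interneuron-like, 418 and 26 LGE neuron-like, 37 and 70 Cajal-Retzius-like and 101 and 227 non-neural cells (endothelial-, pericyte-, meningeal- and microglia-like). The last class held 17 microglia-like cells, all from replicate 3. Cells of the MGE interneuron-like and LGE neuron-like classes were shallow, with median UMIs of 4519 and 4018 and of 4950 and 4360 against 11293 and 10950 in all PN-like cells. The LGE neuron-like class was mixed by its markers. Its LGE neuron markers summed to 4955 and 1032 CPM (the UMIs of a gene scaled to the total UMIs of the class) and its CGE interneuron markers to 4379 and 14490 CPM, so that its 26 cells of replicate 3 went against the name. Levels below are CPM of the UMIs summed per class, always in the order replicate 1, replicate 3. Differences are log2 ratios of these sums, tested with edgeR's quasi-likelihood test and adjusted over all genes tested. The labels do not say that the samples came from separate embryos, so p-values measure the spread between these samples, which may be technical. A summed level does not tell more RNA per cell from more cells with the RNA.

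All 29 genes had a position in RefSeq (GRCm38.p6, the build named mm10 in the submitters' processing notes), and several were neighbours. On chromosome 5, *Gabrg1*, *Gabra2*, *Gabra4* and *Gabrb1* followed one another, with 115774 bases between the first pair, 473884 between *Gabra2* and *Gabra4*, and the 5′ ends of *Gabra4* and *Gabrb1* overlapping by 388 bases on opposite strands. *Gabrg3* and *Gabra5* were 20453 bases apart on chromosome 7, *Gabra6* and *Gabrb2* 98442 on chromosome 11, and *Gria2* and *Glrb* 39370 on chromosome 3. RefSeq's promoter table held 25 windows for 21 of the 29 genes. The 250 bases before the start are printed 5′ to 3′ for 4 of them, with CG dinucleotides in capitals and the strand given. *Gria4* and *Gabrg3* are shown because both stood far higher in MGE interneuron-like than in PN-like cells, and *Gabra2* and *Gabra3* because they moved in opposite directions between newborn PN-like and corticothalamic-like cells.
*Gria4*, chr9:4796235-4796484, minus strand: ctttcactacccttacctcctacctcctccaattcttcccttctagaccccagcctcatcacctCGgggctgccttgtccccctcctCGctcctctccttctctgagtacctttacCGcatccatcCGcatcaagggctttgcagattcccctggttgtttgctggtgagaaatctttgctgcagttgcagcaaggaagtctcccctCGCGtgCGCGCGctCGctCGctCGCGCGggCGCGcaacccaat
*Gabrg3*, chr7:57387216-57387465, minus strand: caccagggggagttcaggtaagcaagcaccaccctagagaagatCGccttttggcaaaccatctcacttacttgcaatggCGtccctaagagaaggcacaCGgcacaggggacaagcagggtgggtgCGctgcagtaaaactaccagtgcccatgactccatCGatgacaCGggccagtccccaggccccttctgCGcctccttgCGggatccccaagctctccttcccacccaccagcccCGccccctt
*Gabra2*, chr5:71095850-71096099, minus strand: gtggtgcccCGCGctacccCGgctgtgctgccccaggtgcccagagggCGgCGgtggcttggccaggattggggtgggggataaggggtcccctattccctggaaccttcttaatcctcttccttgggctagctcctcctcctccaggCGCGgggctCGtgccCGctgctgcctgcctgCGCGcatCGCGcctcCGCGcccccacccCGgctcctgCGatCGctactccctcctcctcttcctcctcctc
*Gabra3*, chrX:72656920-72657169, minus strand: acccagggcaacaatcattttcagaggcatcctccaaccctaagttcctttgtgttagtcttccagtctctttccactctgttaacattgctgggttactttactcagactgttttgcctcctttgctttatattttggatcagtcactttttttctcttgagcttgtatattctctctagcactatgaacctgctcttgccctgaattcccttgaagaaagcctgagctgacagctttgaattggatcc
These windows lay upstream of the named gene, in sequence that RefSeq also assigned to *Gm46100* for *Gria4* and to *Gm9962* for *Gabrg3*, and outside any gene for the other two. The *Gabra2* window held 18 CG dinucleotides and 70.0% G or C, and that of *Gabra3* held 0 and 42.4%. *Gria4* and *Gabrg3* had 16 and 9. Over 32851 windows of this length, the median was 6, and 21.7% held at least 18. The letters CAGATG, searched on both strands, occurred in 2 of the 25 windows (*Grin3b* and *Gabra5*), in none of the 4 printed, and in 14.4% of all windows.

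Summed over the 29 genes, MGE interneuron-like cells were set apart from all other classes, at 12880 and 12560 CPM. LGE neuron-like cells followed at 4581 and 4764 CPM and corticothalamic-like cells at 4417 and 4184 CPM. Newborn PN-like cells were at 2749 and 2599 CPM, RGC-like cells at 2414 and 2519 CPM, and Cajal-Retzius-like cells at 2363 and 2234 CPM. IPC-like cells had the lowest sum among the progenitor- and neuron-like classes of the cortical lineage, at 1672 and 1798 CPM, and did not overlap RGC-like or newborn PN-like cells. Non-neural cells were at 378.2 and 337.5 CPM, and red blood cell-like cells, which should lack these receptors, at 518.5 and 386.2 CPM. The latter sums came from 11 of 57 and 10 of 95 cells that held any member UMI, with *Gria1* at 46.5% and 53.3% of the AMPA subunit UMIs, and they are no even background. Single genes followed their own patterns. *Grik2* was at 1480 and 1767 CPM in RGC-like and 489 and 604 CPM in PN-like cells. *Gria2* was at 206 and 173 CPM in RGC-like and 1153 and 858 CPM in PN-like cells, and *Grin2b* was at 117 and 41.9 and 653 and 436 CPM.

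**Figure D1:**
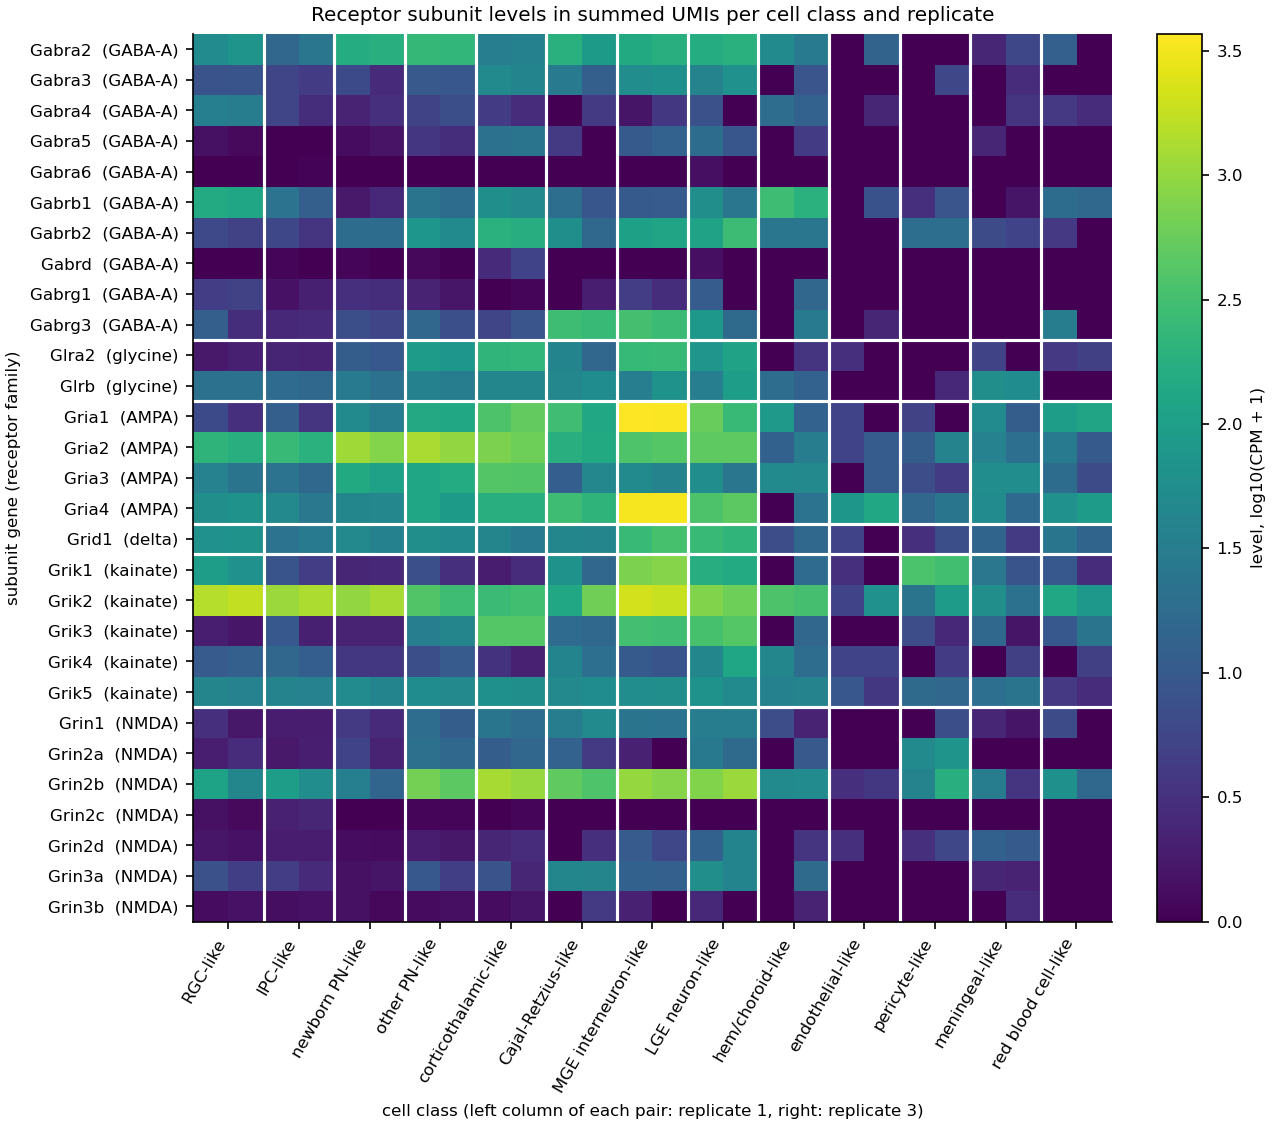
Heat map of the level of each of the 29 subunit genes (rows, by family) in 13 cell classes (columns, replicates 1 and 3 side by side), coloured by log10(CPM + 1). Brighter colours stand for higher levels, and *Gria1* and *Gria4* are brightest in MGE interneuron-like cells. *Grik2* is high from RGC-like to newborn PN-like cells and in MGE interneuron-like cells. *Grin2b* is high in the neuron-like classes other than newborn PN-like cells.

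The step from RGC-like to IPC-like cells was marked by lower GABA-A subunit levels. Of the 24 members that passed the filter on low counts, 7 were lower and 1 was higher in IPC-like cells, against 21% lower and 15% higher among all 13796 genes tested, and the median log2 difference was -0.52 against -0.05. Of the 7 GABA-A subunits tested, 5 were lower. *Gabrb1*, a beta subunit that helps form the GABA binding site, was at 151 and 123 CPM in the RGC-like class and fell to 22.2 and 11.1 CPM in IPC-like cells (log2 difference -3.05, SE 0.291, adjusted p = 1.46e-06). *Gabra4*, an alpha subunit whose 5′ end overlaps that of *Gabrb1*, went from 34.2 and 31.9 to 4.58 and 1.94 CPM (log2 difference -3.30, SE 0.352, adjusted p = 4.29e-06). In both genes the values of the 2 classes were far apart in either replicate. Most of the IPC-like *Gabrb1* UMIs, 156 of 179 and 89 of 137, lay in the cluster led by *Smoc1* and *Gadd45g*, in which 9 of 10 RGC markers were detected and *Gabrb1* was at 68.8 and 24.4 CPM, and the other IPC-like clusters had between 2.56 and 7.17 CPM. *Grik1*, a kainate subunit, fell as well, from 100.3 and 62.2 to 7.55 and 3.48 CPM (log2 difference -3.86, SE 0.484, adjusted p = 2.04e-05). *Gabra2* (51.3 and 69.7 to 13.9 and 24.3 CPM, log2 difference -1.63, adjusted p = 0.00127), the delta subunit *Grid1* (62.1 and 63.9 to 22.2 and 29.8 CPM, -1.25, adjusted p = 0.000194) and *Gabra3* (7.16 and 7.38 to 4.58 and 3.15 CPM, -0.89, adjusted p = 0.0428) moved less. *Gabra5* had 9 UMIs in RGC-like and 0 in IPC-like cells, where 3 counts would stand for 0.147 CPM, and its adjusted p was 0.0397.

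Kainate subunit *Grik2* did not pass the test in this step, with 1480 and 1767 CPM in RGC-like against 1062 and 1363 CPM in IPC-like cells (log2 difference -0.41, adjusted p = 0.484). AMPA subunit *Gria2*, which makes the channel impermeable to calcium once its RNA is edited, was also close in the 2 classes, at 206 and 173 and 264 and 187 CPM (log2 difference 0.26, adjusted p = 0.384). The 1 member that was higher in IPC-like cells, *Grik3*, had low levels in both classes, 0.976 and 0.648 CPM in RGC-like against 8.54 and 1.05 CPM in IPC-like cells (log2 difference 2.17, SE 0.683, adjusted p = 0.0214), and the values of the 2 classes were close in replicate 3. GABAergic markers were higher in IPC-like than in RGC-like cells in replicate 1 and lower in replicate 3. The summed level of 6 such markers was 191 and 33.5 CPM in IPC-like, against 72.5 and 58.9 CPM in RGC-like cells, and a cycling IPC-like cluster carried them. Without that cluster the *Grik3* call was lost (adjusted p = 0.635), as it was with predicted doublets kept (adjusted p = 0.435), over a range of adjusted p from 2.22e-10 to 0.635. The calls were also lost under at least 1 alternative for *Gabra3* (adjusted p up to 0.102) and *Gabra5* (adjusted p up to 0.0643). Leaving out 1 replicate moved the fold change of *Grik3* by more than 1.5-fold, with no test. Its log2 difference was 0.54 without replicate 1 and 2.83 without replicate 3. Here and below, such moves are of the fold change, and the values given are log2 differences. With the replicate as a block, 11 members were lower, the 4 added ones being *Gria3* (adjusted p = 0.0249), *Gria4* (0.027), *Grin3a* (0.0281) and *Gabrg3* (0.0457).

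Genes that work with the receptors were taken as a list of 43 (auxiliary subunits, scaffolds, cerebellins, transmitter enzymes and transporters, chloride transporters), of which 41 were tested. Between RGC-like and IPC-like cells 12 were higher and 8 lower. *Slc17a6*, the vesicular glutamate transporter VGLUT2, had the largest log2 difference (5.61, adjusted p = 5.42e-09), from 4.45 and 4.04 CPM to 197 and 235 CPM. *Cnih3*, a cornichon that binds AMPA receptors, was lower in IPC-like cells (-3.06, adjusted p = 1.63e-07). *Cbln2*, a cerebellin, had 3 UMIs in RGC-like cells and 5.82 and 4.04 CPM in IPC-like cells. The chloride importer *Slc12a2* was lower in IPC-like cells, at 29.5 and 22.6 CPM against 55.4 and 52.3 CPM (-1.04, adjusted p = 0.00205).

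Between IPC-like and PN-like cells the direction was mainly upward. Of 24 members tested, 17 were higher and 1 was lower in PN-like cells, against 23.3% higher and 19.6% lower among all genes tested, with a median log2 difference of 2.14 against 0.02. All 4 AMPA subunits, 5 of 7 GABA-A subunits, 3 of 5 NMDA subunits and both glycine subunits were among the higher ones. *Glra2*, the alpha subunit that predominates in embryonic glycine receptors, had 102 and 83.7 CPM in PN-like and 1.36 and 1.29 CPM in IPC-like cells (log2 difference 6.04, SE 0.339, adjusted p = 3.57e-09). *Gria1* had 171 and 174 CPM against 11.1 and 2.43 CPM (log2 difference 4.84, SE 0.670, adjusted p = 2.49e-05), and its IPC-like values differed between replicates in the same order as the GABAergic markers above. Without the cycling cluster that carried those markers the log2 difference of *Gria1* was 5.04, and the 2 other IPC-like clusters had *Gria1* at 8.56 and 2.27 CPM and at 11.9 and 1.92 CPM. *Grik3* had 106 and 103 CPM against 8.54 and 1.05 CPM (log2 difference 4.67, SE 0.512, adjusted p = 2.28e-06). The PN-like class pools newborn, other and corticothalamic-like cells. *Grik3* was far lower in newborn PN-like than in corticothalamic-like cells, as given below. *Gabrb2*, another beta subunit, rose from 4.95 and 2.59 to 85.1 and 61.8 CPM (log2 difference 4.41, SE 0.399, adjusted p = 3.09e-07). PN-like values lay above IPC-like values in both replicates for each of these 4 genes. The rule by which genes were named with values required the same direction in both replicates.

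The NMDA subunits that rose in the same comparison were *Grin2a*, *Grin1* and *Grin2b*. In newborn PN-like cells alone the NMDA subunits summed to 42.16 and 17.67 CPM, below the 104.9 and 60.91 CPM of IPC-like cells. The regulatory subunit *Grin2a* had 14.9 and 10.6 CPM in PN-like and 0.743 and 0.971 CPM in IPC-like cells (log2 difference 3.67, SE 0.382, adjusted p = 2.15e-06), and the obligatory subunit *Grin1* had 16.1 and 9.05 CPM and 0.867 and 0.890 CPM (log2 difference 3.65, SE 0.413, adjusted p = 3.29e-06). *Gria3* rose from 21.8 and 14.6 to 190.3 and 188 CPM (log2 difference 3.54, SE 0.294, adjusted p = 1.26e-07). *Gabra5*, which forms extrasynaptic receptors, had 385 UMIs in PN-like and 0 in IPC-like cells, at least 38.9-fold higher when 3 counts over both replicates are taken as the floor. The remaining 9 higher members were *Grin2b*, *Gria2*, *Gria4*, *Gabra2*, *Gabra3*, *Gabrg3*, *Glrb*, *Grid1* and *Grik5*, with log2 differences from 0.58 to 3.34. *Grik4*, a high-affinity kainate subunit, was the 1 that was lower, at 4.73 and 5.82 CPM against 14.1 and 10.8 CPM (log2 difference -1.03, SE 0.317, adjusted p = 0.0153). With 1 replicate left out, some fold changes moved by more than 1.5-fold. Their log2 values, with no test, were 6.16 for *Gria1* and 6.44 for *Grik3* without replicate 1. Without replicate 3 they were 4.09 for *Gria1* and 3.77 for *Grik3*. Some alternative setting ended the calls of *Grik4* (adjusted p up to 0.11) and *Grik5* (adjusted p up to 0.157). With the replicate as a block, *Grik2* was also lower (adjusted p = 0.0353), so that 2 members were lower. Scaling by library size only moved the split over all genes from 3208 higher and 2701 lower to 2602 and 3624, with a median shift of -0.15. Of the partner genes, 19 of 41 were higher and 6 lower. *Shank1*, a postsynaptic scaffold (4.59, adjusted p = 6.53e-09), and *Cacng2*, the AMPA receptor regulator stargazin (4.16, adjusted p = 7.33e-07), were higher, and *Cacng5*, another protein of the same family, was lower (-4.56, adjusted p = 9.13e-06).

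Set against RGC-like cells directly, PN-like cells had 15 higher and 5 lower members of 24, against 29.8% and 28.9% of all genes tested, with a median log2 difference of 1.01 against 0.01. The 5 lower ones were *Grik1* (log2 difference -4.43, SE 0.467, adjusted p = 7.39e-07), *Gabra4* (-2.87, adjusted p = 1.09e-06), *Gabrb1* (-2.47, adjusted p = 1.17e-06), *Grik2* (-1.40, adjusted p = 0.00996) and *Grik4* (-0.79, adjusted p = 0.0393). Their levels in PN-like cells were 4.32 and 1.91 CPM for *Grik1*, 3.57 and 4.08 CPM for *Gabra4*, 25.6 and 18.1 CPM for *Gabrb1* and 489 and 604 CPM for *Grik2*. *Grik1*, *Gabra4*, *Gabrb1* and *Grik2* fell in each replicate. *Grik3* (log2 difference 6.84, SE 0.594, adjusted p = 8.66e-08), *Glra2* (log2 difference 6.43, SE 0.337, adjusted p = 3.88e-10) and *Gria1* (log2 difference 5.72, SE 0.700, adjusted p = 3.89e-06) led the higher ones. *Gabrb2* (4.14, adjusted p = 1.47e-07), *Gabra5* (3.53, adjusted p = 6.28e-06) and *Grin1* (3.29, adjusted p = 2.05e-06) followed, and the other 9 had log2 differences from 0.55 to 3.06. With 1 replicate left out, some fold changes moved by more than 1.5-fold. Their log2 values, with no test, were 6.39 for *Gria1* without replicate 1, and 5.13 for *Gria1* and 3.79 for *Grin2a* without replicate 3. Some alternative setting ended the calls of *Grik4* (adjusted p up to 0.185), *Grik5* (adjusted p up to 0.0629) and *Glrb* (adjusted p up to 0.214). Scaling by library size only shifted the median of all genes by -0.15 and the split over all genes from 4115 higher and 3989 lower to 3392 and 4767. Of the partners, 22 of 41 were higher and 4 lower, led by *Cacng2* (5.32, adjusted p = 4.26e-08), the vesicular glutamate transporter *Slc17a7* (5.03, adjusted p = 7.5e-09) and the AMPA receptor auxiliary protein *Shisa6* (4.86, adjusted p = 4.95e-07).

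Within PN-like cells, corticothalamic-like cells, named from *Hs3st4*, *Tle4*, *Fezf2* and other deep-layer markers, had a different subunit set from newborn PN-like cells. Another PN-like cluster, led by *Slit3*, also had 6 of 6 corticothalamic markers on but was counted in other PN-like cells. Of 25 members tested, 16 were higher and 3 lower in corticothalamic-like cells, against 18.8% higher and 15.8% lower among 15701 genes, and the median log2 difference was 1.80 against 0.00. *Grik3* went from 1.23 and 1.23 CPM in newborn PN-like to 428 and 421 CPM in corticothalamic-like cells (log2 difference 8.19, SE 0.568, adjusted p = 4.97e-09). *Grin2b*, the NMDA subunit typical of the embryonic brain, went from 33.7 and 13.7 to 1261 and 1048 CPM (log2 difference 5.68, SE 0.516, adjusted p = 1.32e-07). In both genes the 2 replicates of a class lay close to each other against the gap between the classes. *Gabrb1*, which was near 0 in newborn PN-like cells at 0.769 and 1.58 CPM, was at 58.8 and 46.4 CPM (log2 difference 5.14, SE 0.376, adjusted p = 1.02e-08). *Gabra5* (0.308 and 0.527 to 20.8 and 22.6 CPM, 4.96, adjusted p = 1.42e-07), *Glra2* (10.5 and 8.70 to 217 and 232 CPM, 4.59, adjusted p = 6.72e-10) and *Gabra3* (5.23 and 1.67 to 47.8 and 40.1 CPM, 3.76, adjusted p = 4.55e-07) rose likewise. *Gria1* rose from 50.8 and 31.2 to 377 and 506 CPM (log2 difference 3.49, SE 0.558, adjusted p = 8.61e-05) and *Gabrb2* from 17.4 and 17.2 to 189 and 166 CPM (log2 difference 3.40, SE 0.325, adjusted p = 2.38e-07).

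The members that were lower in corticothalamic-like cells were *Gabra2*, *Grik2* and *Gabrg1*. *Gabra2* was at 162 and 179 CPM in newborn PN-like and 32.4 and 36.5 CPM in corticothalamic-like cells (log2 difference -2.23, SE 0.306, adjusted p = 1.64e-05), the opposite of *Gabra3* and *Gabra5*. In the *Slit3* cluster, which also had all corticothalamic markers on, *Gabra2* lay above the newborn PN-like level, as given below. *Grik2* was at 984 and 1261 and 269 and 312 CPM (log2 difference -1.89, SE 0.402, adjusted p = 0.00122), the opposite of *Grik3*. *Gabrg1* had 35 UMIs in newborn PN-like and 1 UMI in corticothalamic-like cells. The other 8 higher members were *Grin1*, *Grin3a*, *Grin2a*, *Gria4*, *Grin2d*, *Gria3*, *Glrb* and *Grik5*, with log2 differences from 0.46 to 3.12. Values that moved by more than 1.5-fold when 1 replicate was left out were, with no test, without replicate 1 3.31 for *Grin2a*, 6.29 for *Grin2b*, 0.97 for *Grin3a* and 4.42 for *Gabra3*, and without replicate 3 1.33 for *Grin2a*, 3.37 for *Grin3a* and 5.87 for *Gabrb1*. At least 1 alternative ended the calls of *Grik5* (adjusted p up to 0.131) and *Grin3a* (adjusted p up to 0.365). *Gria2* had 728 and 608 CPM in corticothalamic-like against 1146 and 815 CPM in newborn PN-like cells and was lower only with the replicate as a block (adjusted p = 0.0244). DESeq2 changed the split over all genes from 2959 higher and 2473 lower to 3429 and 1933. Among the partners 23 of 41 were higher and 3 lower, including 11 of the 14 AMPA and kainate receptor auxiliary genes. *Shisa9* (5.79, adjusted p = 8.95e-06) and *Gsg1l* (3.90, adjusted p = 1.81e-08), both AMPA receptor auxiliary proteins, were higher and *Slc17a6* was lower (-5.73, adjusted p = 2.85e-10). The chloride exporter *Slc12a5* was at 5.28 and 5.28 CPM against 0.769 and 1.85 CPM (1.78, adjusted p = 0.00785).

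**Figure D2:**
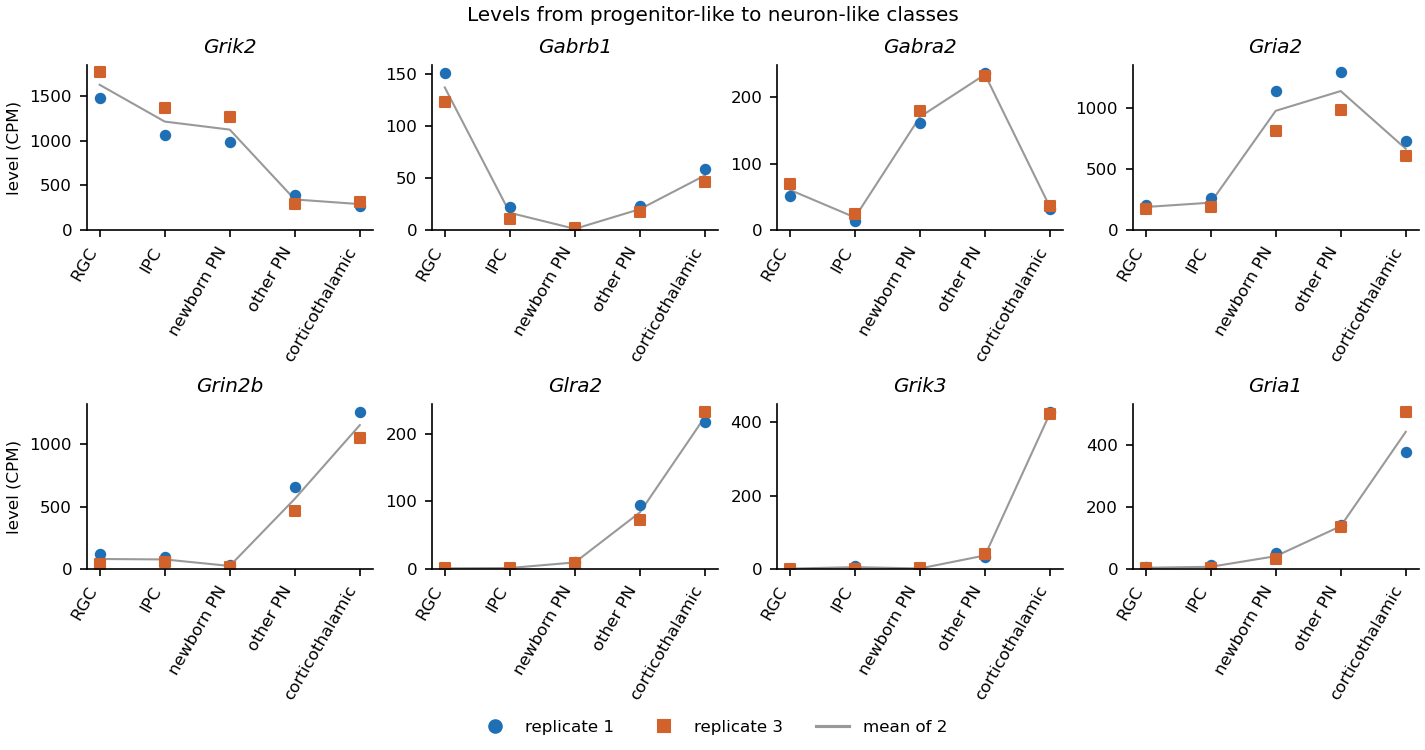
Level in CPM (y axis, linear) of 8 subunit genes in RGC-like, IPC-like, newborn PN-like, other PN-like and corticothalamic-like cells (x axis), with circles for replicate 1, squares for replicate 3 and a line through the mean of 2. *Gabrb1* drops from 151 and 123 CPM in RGC-like to 0.769 and 1.58 CPM in newborn PN-like cells and stands at 58.8 and 46.4 CPM in corticothalamic-like cells, and *Gabra2* peaks at 237 and 231 CPM in other PN-like cells.

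Interneurons were the other main contrast. Of 24 members tested, 10 stood higher and 4 stood lower in the MGE interneuron-like class than in PN-like cells, against 13.4% and 18.3% of all genes, with a median log2 difference of 0.76 against -0.05. The kainate subunit *Grik1* had 739 and 838 CPM in MGE interneuron-like and 4.32 and 1.91 CPM in PN-like cells (log2 difference 7.81, SE 0.534, adjusted p = 6.14e-08). *Gabrg3*, a gamma subunit, had 323 and 270.4 CPM against 10.6 and 6.16 CPM (log2 difference 5.04, SE 0.511, adjusted p = 3.52e-06). *Gria4*, an AMPA subunit, had 3311 and 3310 CPM against 119 and 89.7 CPM (log2 difference 4.91, SE 0.333, adjusted p = 5.63e-08), and *Gria1* had 3701 and 3554 CPM against 171 and 174 CPM (log2 difference 4.31, SE 0.626, adjusted p = 0.000113). The 2 replicates of MGE interneuron-like cells lay close together in *Gria1* and *Gria4*. No value of the 2 classes overlapped in these 4 genes, but the naming rule asked for the same direction in both replicates. The 2 other AMPA subunits went the other way. *Gria2* had 379 and 424 CPM in MGE interneuron-like against 1153 and 858 CPM in PN-like cells (log2 difference -1.40, SE 0.218, adjusted p = 0.000202) and *Gria3* 49.6 and 38.8 CPM against 190.3 and 188 CPM (log2 difference -2.14, SE 0.314, adjusted p = 0.000121). *Grid1* was also higher (249 and 334 CPM against 52.2 and 40.4 CPM, log2 difference 2.56, SE 0.206, adjusted p = 3.15e-07), as was the NMDA subunit *Grin2d* (9.70 and 4.73 CPM against 0.846 and 0.787 CPM, log2 difference 2.83, SE 0.489, adjusted p = 0.000607). *Grin2a* gave 2 UMIs in MGE interneuron-like and 852 in PN-like cells.

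*Gabra3*, *Grik2*, *Grik3* and *Glra2* made up the rest of the higher members, with log2 differences from 1.33 to 1.93, and *Gabrb1* was lower (-1.29, adjusted p = 0.0401). *Grin2b* did not pass the test, at 1004 and 823 CPM against 653 and 436 CPM (0.67, adjusted p = 0.229), and neither did *Gabra2*, at 148 and 172 CPM against 180.4 and 176 CPM (-0.24, adjusted p = 0.614). Values that moved by more than 1.5-fold when 1 replicate was left out were, with no test, without replicate 1 8.53 for *Grik1* and 2.21 for *Grin2d*. *Grin2a*, with 2 UMIs in MGE interneuron-like cells, also moved by more than 1.5-fold without replicate 1. At least 1 alternative ended the calls of *Grik3* (adjusted p up to 0.163) and *Gabrb1* (adjusted p up to 0.108). Beside depth, the share of mitochondrial UMIs (median 4.96% and 5.94% against 3.05% and 3.49%) and the level of the nuclear RNA *Malat1* (22550 and 22920 CPM against 15570 and 16740 CPM) were higher in MGE interneuron-like cells, and their part in the result was not tested. DESeq2's scaling moved the median of all genes by 0.39 and the split over all genes from 1854 higher and 2529 lower to 2124 and 1625. None of the 14 members called changed direction under it. Of the partners 15 of 41 were higher and 8 lower. *Neto1*, an auxiliary subunit of kainate receptors, had 509 and 467 CPM against 1.82 and 1.52 CPM (log2 difference 7.93, SE 0.472, adjusted p = 1.46e-08), and *Gad1* (8.39) and *Gad2* (7.95), which make GABA, were higher. *Slc12a5* was at 18.2 and 11.3 CPM against 2.72 and 2.36 CPM (2.41, adjusted p = 0.00113).

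**Figure D3:**
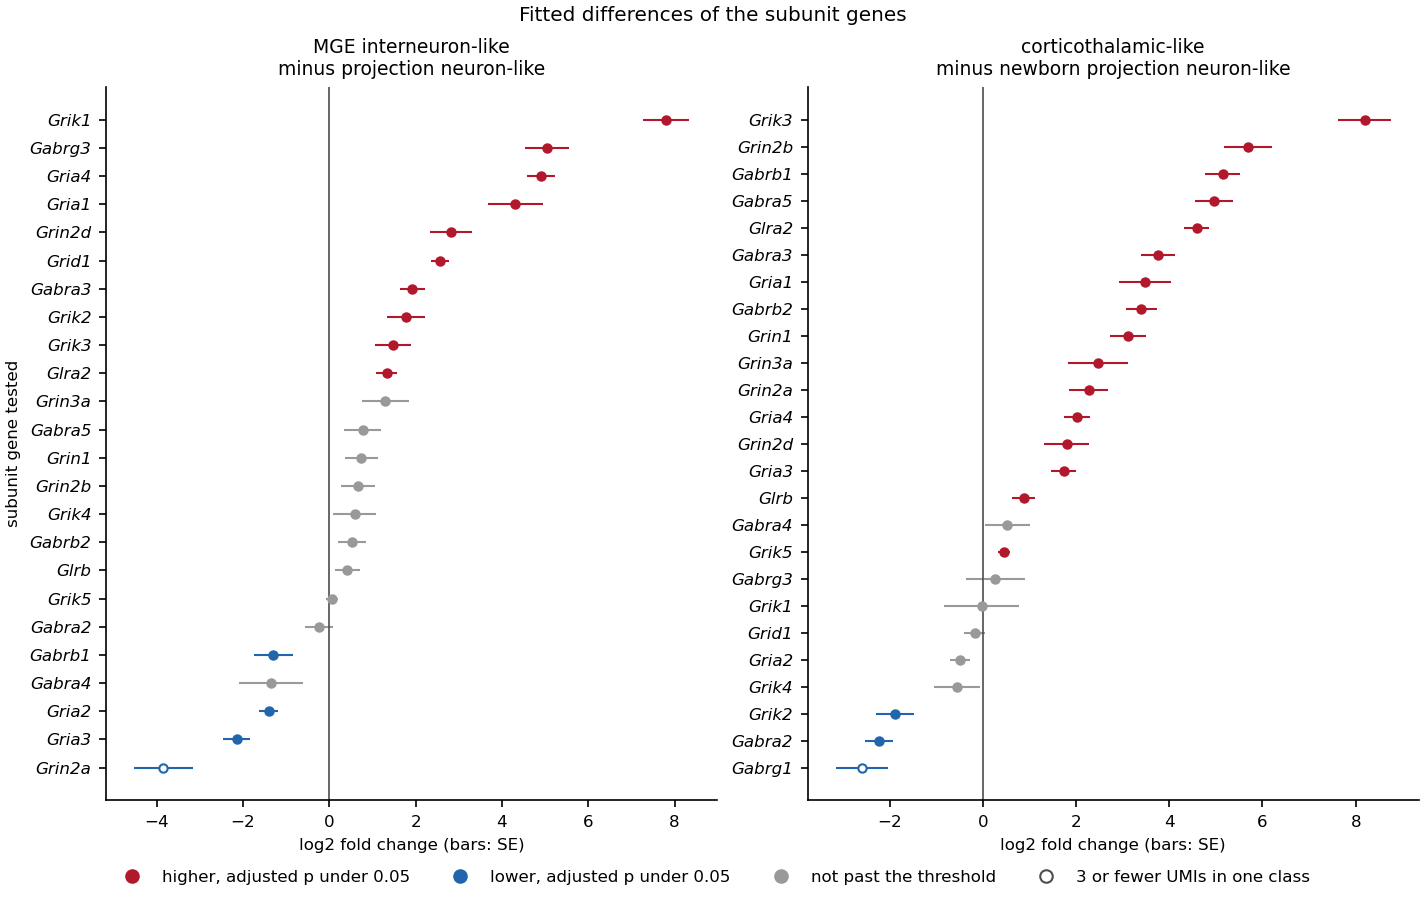
Log2 differences (x axis, with bars of 1 SE) of the subunit genes tested (rows) for MGE interneuron-like minus PN-like cells and for corticothalamic-like minus newborn PN-like cells. Open markers stand for genes with 3 or fewer UMIs in 1 class, such as *Grin2a* with 2 UMIs in MGE interneuron-like cells. The largest values are those of *Grik1* (7.81) in the first and *Grik3* (8.19) in the other comparison.

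The comparison of LGE neuron-like with MGE interneuron-like cells set 418 cells of replicate 1 beside 26 of replicate 3 in which CGE markers exceeded LGE markers, so the 2 sums of the LGE neuron-like class are not of like cells. The class had 3 higher and 5 lower members of 24 than MGE interneuron-like cells, against 2.92% and 1.43% of all genes. *Gria4* was at 376 and 468 CPM against 3311 and 3310 CPM (log2 difference -3.12, SE 0.321, adjusted p = 5.81e-05) and *Gria1* at 541 and 254 CPM against 3701 and 3554 CPM (log2 difference -3.18, SE 0.612, adjusted p = 0.00627). *Grik1* (167 and 151 CPM against 739 and 838 CPM, -2.37, adjusted p = 0.00775), *Glra2* (71.0 and 111 CPM against 244 and 251 CPM, -1.79, adjusted p = 0.00276) and *Gabrg3* (79.3 and 15.9 CPM against 323 and 270.4 CPM, -2.17, adjusted p = 0.0372) were lower as well. *Grik4* (42.8 and 127 CPM against 9.13 and 7.56 CPM, 2.57, adjusted p = 0.00689) and *Gabrb1* (56.7 and 23.8 CPM against 9.13 and 9.46 CPM, 2.39, adjusted p = 0.0097) were higher. *Grin2a* had 70 UMIs in LGE neuron-like and 2 in MGE interneuron-like cells. *Grik3* was similar in level, 338 and 429 CPM and 314 and 302 CPM, and did not pass the test. Values that moved by more than 1.5-fold when 1 replicate was left out were, with no test, without replicate 1 -3.93 for *Gria1*, 3.90 for *Grik4*, 1.18 for *Gabrb1* and -4.20 for *Gabrg3*. *Grin2a*, with 2 UMIs in MGE interneuron-like cells, also moved by more than 1.5-fold without replicate 1. Without replicate 3, which leaves the 418 cells, no member called here moved by that much. At least 1 alternative ended the call of *Gabrg3* (adjusted p up to 0.0869). With the replicate as a block *Grin3a* (adjusted p = 0.0101) and *Grik2* (0.0233) passed too. Of the partners 2 were higher and 2 lower, with *Cacng3* (-4.22, adjusted p = 0.000534) and *Neto1* (-2.81, adjusted p = 0.00146) lower and *Slc17a6* (2.27, adjusted p = 0.00951) higher.

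Cajal-Retzius-like cells, the *Reln*-expressing neurons of the marginal zone, had 6 higher and 5 lower members of 24 than PN-like cells, against 12.3% and 12.2% of all genes, and a median log2 difference of -0.47 against -0.06. They shared a high level of *Gabrg3* with MGE interneuron-like cells, at 290.1 and 260.1 CPM against 10.6 and 6.16 CPM in PN-like cells (log2 difference 4.75, SE 0.515, adjusted p = 6.64e-06). *Grik1* (64.1 and 14.2 CPM against 4.32 and 1.91 CPM, 3.19, adjusted p = 0.00136), the NMDA subunit *Grin3a* (42.8 and 41.5 CPM against 6.58 and 2.19 CPM, 2.95, adjusted p = 0.000368) and *Grik4* (39.7 and 19.2 CPM against 4.73 and 5.82 CPM, 2.12, adjusted p = 0.002) were higher. *Grin1* (1.42, adjusted p = 0.0115) and *Gria4* (1.01, adjusted p = 0.0212) were higher by less. Lower were *Grik3* (16.8 and 15.2 CPM against 106 and 103 CPM, -2.95, adjusted p = 0.00272), *Gria3* (10.7 and 43.5 CPM against 190.3 and 188 CPM, -2.92, adjusted p = 2.65e-05), *Gria2* (172 and 147 CPM against 1153 and 858 CPM, -2.90, adjusted p = 3.65e-07), *Glra2* (-2.14, adjusted p = 0.000279) and *Gabrb2* (-1.35, adjusted p = 0.0349).

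The Cajal-Retzius-like class held 37 and 70 cells, and its replicates lay apart in *Grik1* (above) and *Grik2* (136 and 619 CPM). Values that moved by more than 1.5-fold when 1 replicate was left out were, with no test, without replicate 1 2.48 for *Grik1*, 1.42 for *Grik4*, 2.12 for *Grin1*, 3.83 for *Grin3a*, -2.27 for *Gabrb2* and -2.81 for *Glra2*, and without replicate 3 -4.34 for *Gria3*, 2.79 for *Grik4*, 0.69 for *Grin1* and -0.73 for *Gabrb2*. At least 1 alternative ended the calls of *Gria4* (adjusted p up to 0.138), *Grik1* (adjusted p up to 0.345), *Grin1* (adjusted p up to 0.286), *Grin3a* (adjusted p up to 0.107) and *Gabrb2* (adjusted p up to 0.227). With every cell thinned to 3000 UMIs, 2 members were higher, not 6. Scaling changed the split over all genes from 1703 higher and 1683 lower to 2576 and 1047 with library sizes only and to 1976 and 1112 with DESeq2, with median shifts of 0.24 and 0.39. Of the partners 4 of 41 were higher and 11 lower. *Slc17a7* and *Cbln2* had 0 UMIs, *Shisa9* had 2 UMIs and *Cnih3* had 3 UMIs in Cajal-Retzius-like cells.

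Outside the neural lineages, non-neural cells had 12 lower and 2 higher members of 24 than RGC-like cells, against 27.2% lower and 26% higher among all genes, with a median log2 difference of -0.88 against -0.07. *Gabrb1* (0.602 and 3.72 CPM against 151 and 123 CPM, -5.57, adjusted p = 6.55e-08), *Grik2* (31.3 and 46.8 CPM against 1480 and 1767 CPM, -5.35, adjusted p = 4.7e-07), *Gabra4* (0 and 1.55 CPM against 34.2 and 31.9 CPM, -4.71, adjusted p = 2.98e-06), *Gabra2* (-3.99, adjusted p = 9.66e-06), *Grid1* (-3.71, adjusted p = 1.01e-07) and *Gria2* (19.9 and 19.9 CPM against 206 and 173 CPM, -3.24, adjusted p = 5.52e-08) were lower. *Gabrg3* and *Grin3a*, with 1 and 3 UMIs in non-neural cells, and *Gabra3*, *Grik4*, *Grik5* and *Grin2b* were the other lower members. NMDA subunits summed to 88.96 and 258.5 CPM in pericyte-like, 45.06 and 15.37 CPM in meningeal-like and 4.184 and 2.788 CPM in endothelial-like cells. RGC-like cells had 128.4 and 49.22 CPM, so the lower *Grin2b* of the pool is not shown for each type. Values that moved by more than 1.5-fold when 1 replicate was left out were, with no test, without replicate 1 -0.17 for *Grin2b* and -4.97 for *Gabrb1*, and without replicate 3 -2.72 for *Grik4*, -2.23 for *Grin2b*, -3.05 for *Grid1*, -5.89 for *Gabra2*, -4.81 for *Gabra3*, -7.02 for *Gabra4* and -7.44 for *Gabrb1*. *Gabrg3*, with 1 UMI in non-neural cells, also moved by more than 1.5-fold when either replicate was left out. At least 1 alternative ended the calls of *Grik4* (adjusted p up to 0.265), *Grin2b* (adjusted p up to 0.143), *Grin3a* (adjusted p up to 0.155) and *Gabrg3* (adjusted p up to 0.21). DESeq2's scaling moved the split over all genes from 3583 higher and 3756 lower to 4069 and 2398, with a median shift of 0.28.

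The 2 higher members were NMDA subunits. *Grin2a* had 14.4 and 13.7 CPM in non-neural against 0.976 and 1.79 CPM in RGC-like cells (log2 difference 3.02, SE 0.396, adjusted p = 1.65e-05), and *Grin2d* had 6.02 and 5.58 CPM against 0.651 and 0.499 CPM (log2 difference 2.87, SE 0.493, adjusted p = 0.000199). Within this pool the *Grin2a* UMIs lay in pericyte-like cells, at 48.5 and 68.5 CPM and 0 in endothelial- and meningeal-like cells, and the *Grin2d* UMIs mainly in meningeal-like cells, at 11.6 and 9.22 CPM. Pericyte-like cells, which wrap capillaries, also had *Grik1* at 359.9 and 305 CPM, against 24.7 and 7.38 CPM in meningeal-like and 2.09 and 0 CPM in endothelial-like cells. Endothelial-like cells had *Gria4* at 77.4 and 134 CPM. Meningeal-like cells had *Glrb*, the beta subunit that anchors glycine receptors, at 56.7 and 52.9 CPM and *Gria3* at 55.2 and 55.3 CPM. These levels rest on 38 and 46 pericyte-like, 20 and 39 endothelial-like and 43 and 125 meningeal-like cells and were not tested between these types. RGC markers were present in the pericyte-like cells at a summed level of 2185 and 2507 CPM, against 7174 and 5474 CPM in RGC-like cells, and GABAergic markers at 4.04 and 7.79 CPM, against 1842 and 1790 CPM in MGE interneuron-like cells. Of the partners, 4 of 41 were higher and 16 lower, among them the astroglial glutamate transporter *Slc1a2* (-3.83, adjusted p = 0.00027) and the scaffold *Shank2* (-3.24, adjusted p = 1.71e-05), and *Cacng5* had 0 UMIs.

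**Figure D4:**
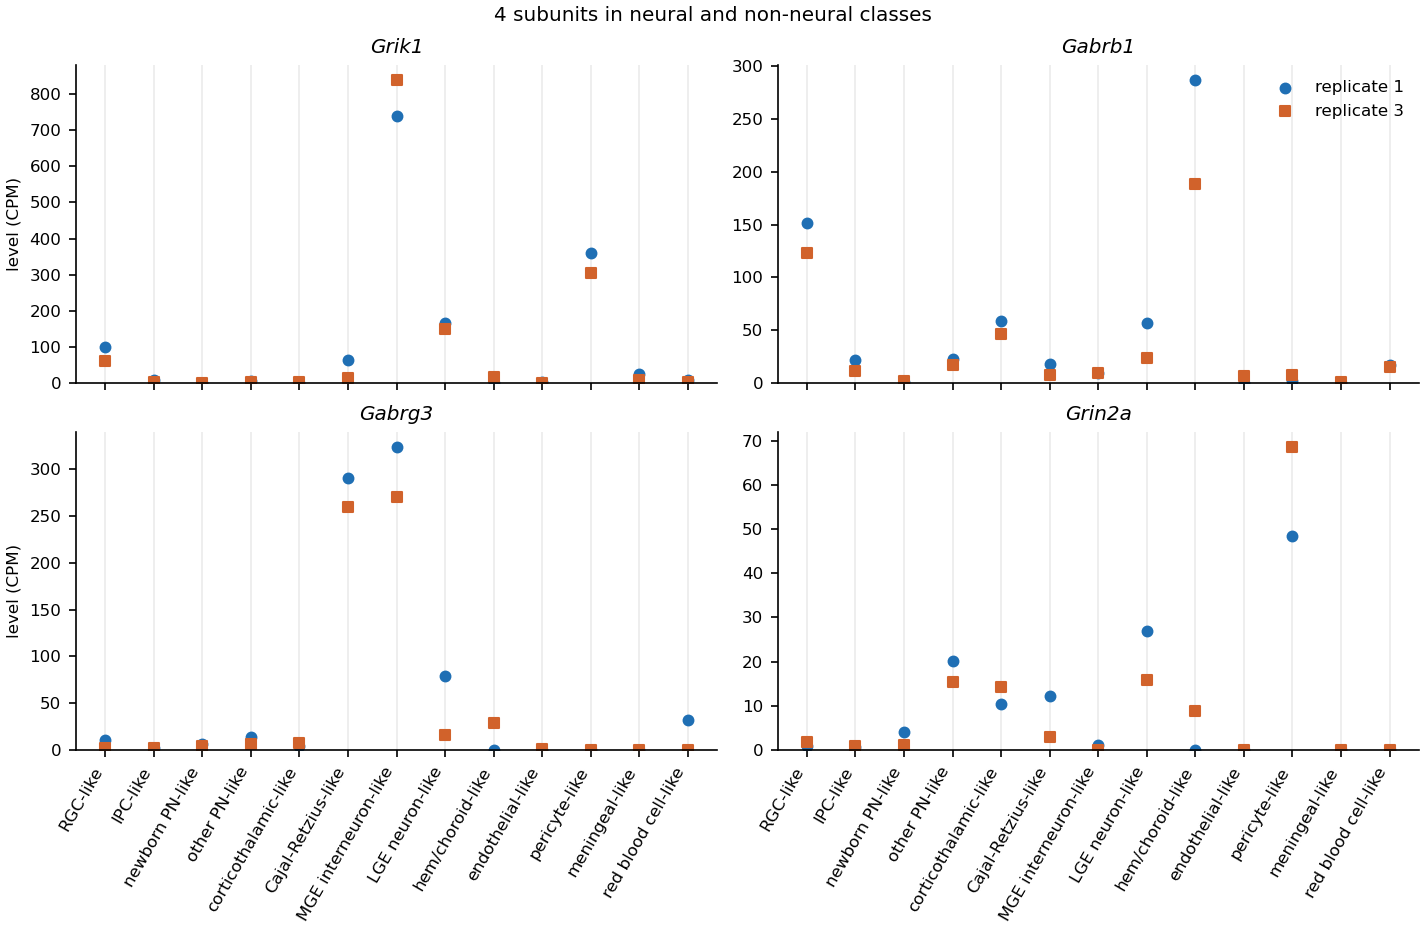
Level in CPM (y axis) of *Grik1*, *Gabrb1*, *Gabrg3* and *Grin2a* in 13 cell classes (x axis), with 1 point per replicate. *Grik1* stands out in MGE interneuron-like (739 and 838 CPM) and pericyte-like cells (359.9 and 305 CPM), *Gabrb1* in hem or choroid plexus-like (286 and 188 CPM) and RGC-like cells, *Gabrg3* in MGE interneuron-like and Cajal-Retzius-like cells, and *Grin2a* in pericyte-like cells.

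The make-up of each receptor family was described as the share of each gene in the UMIs of the family's listed genes, a quantity that differs between classes without regard to the family's total. Genes differ in how well their 3′ ends are captured, so the shares of different genes do not give the proportions of the subunits, and only the shares of the same gene can be compared between classes. *Gria2* took 66.6% of AMPA subunit UMIs in RGC-like, 79.1% in IPC-like and 82.1% in newborn PN-like cells (means of the 2 replicates). It took 39.7% in corticothalamic-like, 36.1% in LGE neuron-like, 25.0% in Cajal-Retzius-like and 5.44% in MGE interneuron-like cells, where the replicates were 5.09% and 5.79%. *Gria1* and *Gria4* made up 49.1% and 44.8% there. Among GABA-A subunits listed, *Gabrb1* had 54.1% in RGC-like cells, *Gabra2* 84.4% in newborn PN-like, *Gabrb2* 51.9% in corticothalamic-like and *Gabrg3* 58.8% in Cajal-Retzius-like and 45.5% in MGE interneuron-like cells.

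The share of *Grik2* among kainate subunit UMIs was high in progenitor-like and newborn neuron-like cells. It was 92.4% in RGC-like, 95.1% in IPC-like and 95.5% in newborn PN-like cells. The share was 63.0% in MGE interneuron-like cells, where kainate subunits summed to 3208 and 3073 CPM, against 1633 and 1878 CPM in RGC-like cells. In corticothalamic-like cells the share of *Grik2* was 37.2%, beside 54.6% for *Grik3*. The NMDA family showed less of a shift, and *Grin2b* took between 78.8% (newborn PN-like) and 96.7% (corticothalamic-like) in these 8 classes. Of the 2 glycine subunits *Glra2* had 4.05% in RGC-like, 28.5% in newborn PN-like and 84.1% in corticothalamic-like cells. These shares are a description and were not tested.

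**Figure D5:**
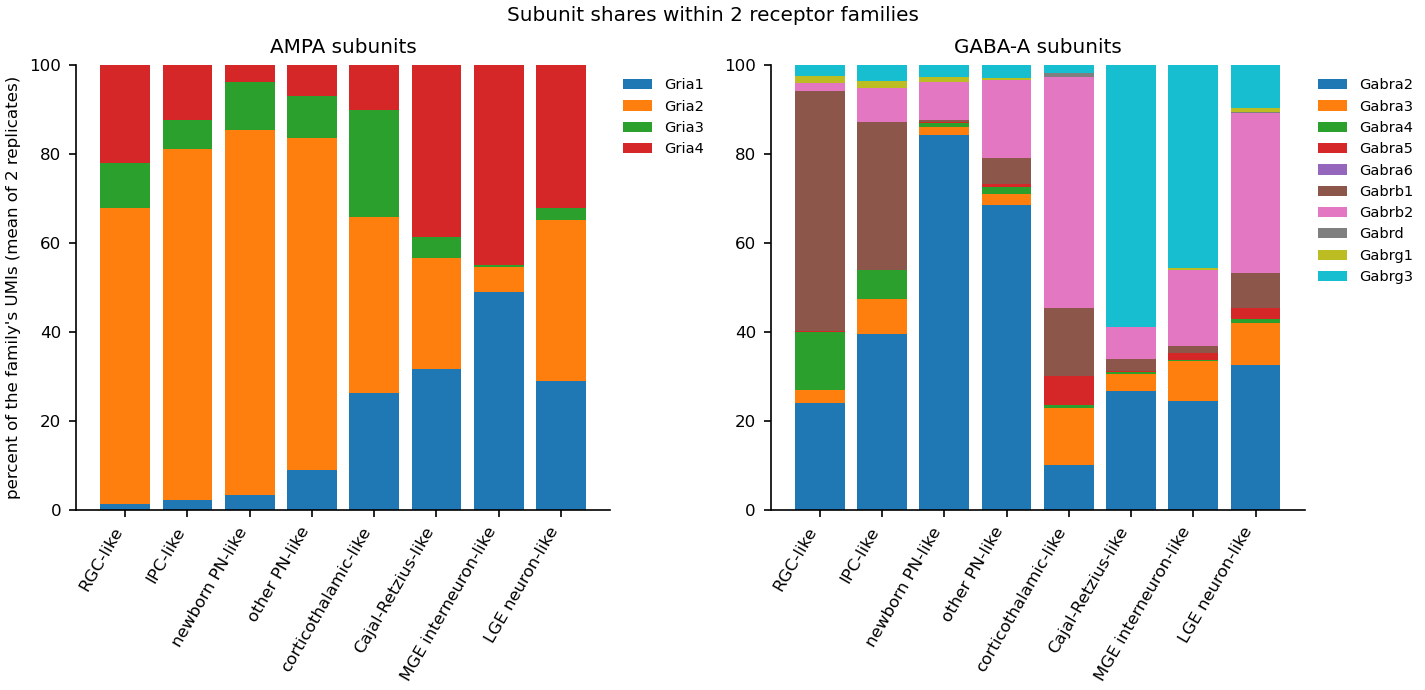
Stacked bars of the percent of the family's UMIs (y axis, mean of 2 replicates) for the 4 AMPA and 10 listed GABA-A subunits in 8 cell classes (x axis). The *Gria2* segment is largest in newborn PN-like cells (82.1%) and smallest in MGE interneuron-like cells (5.44%), and of the GABA-A segments *Gabrb1* is widest in RGC-like, *Gabra2* in newborn PN-like and *Gabrb2* in corticothalamic-like cells.

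Per cell, counts were compared after thinning each cell to 3000 UMIs, which left out shallower cells. *Gria1* was detected in 92.8% (246 of 265) and 98.0% (151 of 154) of MGE interneuron-like cells, with Wilson 95% intervals of 89.1% to 95.4% and 94.4% to 99.3% that cover counting error only. Without thinning the shares were 93.4% and 99.1%, and 68 and 61 cells were left out by it. In red blood cell-like cells, which should lack the gene and had median depths of 5311 and 4541 UMIs, the thinned share was 4.17% (2 of 48 cells, interval 1.15% to 14.0%) and 1.64% (1 of 61, 0.290% to 8.72%). The shares of RGC-like cells, 1.57% and 0.595%, and of IPC-like cells, 2.45% and 0.593%, lay within these wide intervals. Red blood cell markers made up 820300 and 856900 CPM of red blood cell-like cells, which leaves few of their thinned UMIs for other genes. Their shares therefore set no background at equal depth for this or the other genes, and whether *Gria1* is absent from progenitor-like cells was not tested. *Gria2* was detected in 90.8% and 85.5% of PN-like and 37.7% and 36.1% of RGC-like cells, against 2 of 48 and 2 of 61 red blood cell-like cells. *Grik3* was found in 66.5% and 68.7% of corticothalamic-like but 0.331% and 0.357% of newborn PN-like cells, and in 1 of 48 and 1 of 61 red blood cell-like cells. *Gabrb1* was found in 18.5% (118 of 637) and 18.5% (280 of 1512) of RGC-like cells, and in 0 of 604 and 3 of 1119 newborn PN-like cells. At least 1 UMI of any of the 29 genes was seen in all thinned MGE interneuron-like and corticothalamic-like cells, and in 10.4% and 9.84% of red blood cell-like cells.

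Clusters within a class also differed, which is given as a description because the clusters were drawn from the same cells. Among RGC-like clusters, the one led by *Ltbp1* and *Rmst*, with 105 and 469 cells, had *Gabrb1* at 333 and 226 CPM, *Gabra2* at 166 and 153 CPM and *Grik2* at 2312 and 2311 CPM, and a cycling cluster led by histone genes had 149.6 and 113, 40.8 and 53.1 and 1569 and 1769 CPM. *Grik1* went the other way, with 18.5 and 20.3 CPM in the former and 137 and 91.4 CPM in the cycling cluster. The PN-like cluster led by *Slit3* and *Crym* had 6 of 6 corticothalamic markers on but was counted in other PN-like cells. Its *Gabra2* was at 458 and 362 CPM, against 180.4 and 176 CPM over all PN-like cells. Its *Gabrb1* was at 117 and 64.6 CPM, against 25.6 and 18.1 CPM over all PN-like cells. The *Tfap2d* cluster had *Grin2a* at 33.4 and 61.1 CPM and *Grin3a* at 33.7 and 27.3 CPM, against 14.9 and 10.6 and 6.58 and 2.19 CPM. The *Ttr*-expressing hem or choroid plexus-like cells, 15 and 109 in number, had the highest *Gabrb1* level of all classes, at 286 and 188 CPM.

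Some members were near the limit of detection. *Gabra6*, the alpha subunit of cerebellar granule cells, had 2 UMIs in all kept cells, *Grin2c* 42, *Gabrd* 49 and *Grin3b* 59, and they passed no filter on low counts. Corticothalamic-like cells held 11 and 30 of the *Gabrd* UMIs (1.71 and 4.28 CPM), and IPC-like cells 9 and 18 of the *Grin2c* UMIs (1.11 and 1.46 CPM). *Grin2d* had 180 and *Gabrg1* 259 UMIs, and *Gabrg1* was tested only between corticothalamic-like and newborn PN-like cells. *Gabrg1* was highest in hem or choroid plexus-like cells of replicate 3 (22 UMIs) and LGE neuron-like cells of replicate 1 (25 UMIs) and had no UMI in the other replicate of either class, and in RGC-like cells it was at 3.47 and 4.14 CPM. *Grik5*, which needs another kainate subunit to form a channel, was at 41.3 and 36.6 CPM in RGC-like, 61.6 and 58.7 CPM in corticothalamic-like, 55.3 and 56.7 CPM in MGE interneuron-like and 15.1 and 15.2 CPM in non-neural cells.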

How the data were processed

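The samples were 2 droplet-based scRNA-seq libraries (10x Genomics 3′ v3.1) of papain-dissociated E14.5 dorsal telencephalon. The values deposited by the authors were UMI counts per gene and barcode, made with Cell Ranger 7.0.0 on mm10 according to the submitters' processing notes, with no further normalization. The annotation, the intron setting and cell calling are not given in the sources used here, and unspliced reads of long genes, if counted, would raise the levels of many of the subunits. The file of a sample was taken as its group and replicate by its label. The members and gene lists were chosen with earlier results of these data known.

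Cells were required to hold 1500 to 60000 UMIs, of which less than 10% mitochondrial, which removed 710 and 1387 barcodes. Doublets were scored against 2 simulated doublets per cell and the highest removed at 0.8% per 1000 barcodes (304 and 629). Counts were scaled to 10000 per cell. The 2000 most variable genes, without the 29 members and 43 partners, gave 30 components, a graph of 15 neighbours and Leiden clusters at resolution 1.0. A cluster was named when at least 3 markers of a class exceeded a scaled level of 0.5 and were seen in at least 10% of cells. It stayed unnamed where another class led its top genes or the UMI count was low without a marker.

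UMIs were summed per class and replicate, and CPM were computed from the sums. Classes with at least 20 cells in each replicate entered the tests. With stricter cell limits and with thinned cells this minimum was not applied. There the LGE neuron-like sum of replicate 3 held 18 cells, and the hem or choroid plexus-like sum of replicate 1, with 15 cells, entered the fit. Sums were tested with edgeR 4.0.16 (quasi-likelihood, TMM, filter on low counts, prior count 2, adjusted p under 0.05), and the SE was the absolute log2 difference over the square root of F. All sums with the same replicate number derive from the same library, and the number therefore pairs them. Over genes, their deviations correlated with r from 0.00867 to 0.362, and genes are not independent replicates. The main design had no block. Alternatives were a fit with the replicate as a block, DESeq2 1.42.0 and those listed in the closing section. Named with values were the members called or, above 8, the 8 with the largest differences among those changed the same way in both replicates. At most 3 partners a comparison were named, also with the same direction in both replicates. Further members and the chloride transporters were named after their values were seen. Shares of cells have Wilson 95% intervals, which cover counting error only, and a count of 0 allows up to 3 counts. Positions and promoter sequences are from RefSeq, GRCm38.p6. Software included R 4.3.3, Python 3.11.15 and scanpy 1.11.5.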

Additional observations from a re-analysis of the deposited data

Results flagged for a closer look

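Classes outside the comparisons also held receptor transcripts. In hem or choroid plexus-like cells (15 and 109 cells), 9 of the 29 members had more than 3 UMIs in each replicate, with *Gabrb1* at 286.5 and 188.4 CPM. In the 2 unnamed clusters (78 and 178 cells, median 3357 and 3290 UMIs) 12 members did, and *Grin3a* was at 174 CPM in replicate 1 (55 UMIs) and 1.35 CPM in replicate 3 (1 UMI). In the 17 microglia-like cells, all of replicate 3, 1 member did, *Grik2*, with 12 UMIs (50.5 CPM). Red blood cell-like cells had *Gabrb1* at 17.3 and 15 CPM, *Grin3a* at 0 in both and *Grik2* at 135 and 78.7 CPM, from the 11 of 57 and 10 of 95 such cells with any member UMI, so these sums set no background for the other classes.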

How the results depend on the processing

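Over 1139 recomputed results of single members called in a comparison, none reversed direction. Of the 112 member calls, 9 were lost with DESeq2, 8 with doublets kept, 4 with library sizes only, 2 with stricter cell limits (3000 to 40000 UMIs), 2 without red blood cell-like sums and 1 with no filter on low counts, and 12 of 105 with cells thinned to 3000 UMIs. Leaving out the red blood cell-like sums and leaving out the cycling IPC-like cluster (2 of 26 calls lost) were chosen after seeing the data. With the replicate block 0 were lost and others were gained, and the counts of members lower were 11 instead of 7 (IPC-like minus RGC-like) and 2 instead of 1 (PN-like minus IPC-like), with no other count moved by over 1.5 times. For IPC-like minus RGC-like, 1 member was higher, against 2 with no filter, 0 with doublets kept and 0 without the cycling cluster, and 7 were lower, against 12 with no filter. For PN-like minus IPC-like, 1 was lower, against 2 with library sizes only, 0 with DESeq2, 4 with no filter, 0 with doublets kept, 2 with thinned cells and 2 without the cycling cluster. For Cajal-Retzius-like minus PN-like, 6 were higher, against 2 with thinned cells, and 5 lower, against 11 with no filter. For non-neural minus RGC-like, 2 were higher, against 4 with DESeq2, 4 with no filter and 1 with thinned cells. The cause was not tested. The summed member level of MGE interneuron-like cells was 12720 CPM as a mean and 11560 CPM with doublets kept. The share of PN-like cells with *Gria2* was 88.1% at 3000 and 70.9% at 1500 UMIs, and that of RGC-like cells with *Gabrb1* 18.5% and 12.8%, since fewer UMIs were drawn.

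Left out in turn, each replicate gave a fold change with no test, and 45 of 224 such values moved by more than 1.5-fold, 0 of them with a change of sign. From 1 replicate each, the share of *Gria2* in AMPA subunit UMIs was 65.5% to 70.6% in PN-like and 5.09% to 5.79% in MGE interneuron-like cells, and that of *Grik2* in kainate subunit UMIs 90.7% to 94.1% in RGC-like cells. Subplate-like and CGE interneuron-like comparisons were not run, since no cluster took those names. *Gabra6*, *Grin2c*, *Gabrd* and *Grin3b* had too few UMIs to pass the filter on low counts, and for them an absent RNA and one not captured cannot be told apart. *Gabrg1* passed this filter only for corticothalamic-like against newborn PN-like cells and was not tested in the other comparisons.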
